A study of Mus musculus with 24 samples.

Results

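The genes described here were 10 members of the necroptosis and pyroptosis machinery, taken by their symbols in GENCODE M21 from the 54532 genes counted in each sample: the nucleic acid sensor Zbp1, the necroptosis effector Mlkl, the kinases Ripk1 and Ripk3, the initiator caspase Casp8, the inflammatory caspases Casp1 and Casp4, the pore-forming protein gene Gsdmd, the death ligand Tnfsf10 and the death receptor Fas. RNA-Seq was performed on 4 tissues of Trex1-KO mice (stomach, heart, tongue and muscle), with 3 control and 3 SN-011 samples per tissue and 24 samples in all. All 8 groups shared the Trex1 deletion, which removes a DNA exonuclease and activates the cGAS-STING pathway, and SN-011 is a STING antagonist. The labels give SN-011 at 5 mg/kg, 3 times a week for 4 weeks, and call the controls untreated, whereas the study's methods give 10 mg/kg injected intraperitoneally every day for 2 weeks into mice of 1 month of age, with vehicle (Tween 80 in PBS) as the control. No wild-type samples were analysed here, so the values compare SN-011 with control within Trex1 deficiency.

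Necroptosis is a lytic form of cell death. Death receptors, Toll-like receptors or the Z-nucleic acid sensor ZBP1 engage the kinase RIPK3, directly or through RIPK1, and RIPK3 phosphorylates MLKL, which permeabilizes the plasma membrane. Caspase-8 holds this route in check by cleaving RIPK1 and RIPK3, and drives apoptosis when recruited by death receptors such as FAS or the receptors of TNFSF10 (TRAIL). In pyroptosis, inflammatory caspases cleave gasdermin D, whose fragment forms pores. Zbp1, Mlkl, Casp1, Casp4, Gsdmd and Tnfsf10 were treated as the inducible effectors and Ripk1 and Ripk3 as the constitutive kinases, a division of known roles rather than a result.

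Promoter sequences are shown for 5 genes, because 3 of them (Tnfsf10, Casp8 and Mlkl) were lower on average after SN-011, 1 (Fas) was higher and 1 (Ripk3) did not pass the test. They are RefSeq windows of GRCm38.p6 from 250 bases before to 50 bases after the start of transcription, printed 5′ to 3′ on the strand of the gene. Capitals mark every match on either strand to AANNGAAA (the core bound by interferon regulatory factors), GAAANNGAA (a form of the interferon-stimulated response element) or TTCNNNGAA (a form of the STAT-bound gamma-activated sequence). The windows lie at chr3:27316827-27317126 on the + strand (Tnfsf10), chr1:58802252-58802551 on the + strand (Casp8), chr8:111338156-111338455 on the - strand (Mlkl), chr14:55788808-55789107 on the - strand (Ripk3) and chr19:34290409-34290708 on the + strand (Fas).
Tnfsf10: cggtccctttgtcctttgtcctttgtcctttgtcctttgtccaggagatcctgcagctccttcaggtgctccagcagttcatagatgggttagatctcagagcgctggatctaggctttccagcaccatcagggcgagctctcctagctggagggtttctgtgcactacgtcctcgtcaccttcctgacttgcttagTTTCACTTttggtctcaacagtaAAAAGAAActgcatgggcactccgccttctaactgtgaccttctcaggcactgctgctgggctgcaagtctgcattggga
Casp8: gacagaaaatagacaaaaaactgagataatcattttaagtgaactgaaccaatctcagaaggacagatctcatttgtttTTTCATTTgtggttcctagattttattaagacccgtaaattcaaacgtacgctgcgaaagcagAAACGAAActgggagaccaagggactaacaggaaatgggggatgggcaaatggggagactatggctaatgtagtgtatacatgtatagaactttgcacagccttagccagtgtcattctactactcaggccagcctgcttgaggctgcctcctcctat
Mlkl: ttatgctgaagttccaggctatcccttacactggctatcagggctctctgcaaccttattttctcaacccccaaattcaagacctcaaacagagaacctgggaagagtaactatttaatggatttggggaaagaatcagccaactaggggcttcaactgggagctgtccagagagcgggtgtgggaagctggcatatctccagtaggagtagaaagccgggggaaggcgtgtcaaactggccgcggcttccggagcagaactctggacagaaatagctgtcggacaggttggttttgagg
Ripk3: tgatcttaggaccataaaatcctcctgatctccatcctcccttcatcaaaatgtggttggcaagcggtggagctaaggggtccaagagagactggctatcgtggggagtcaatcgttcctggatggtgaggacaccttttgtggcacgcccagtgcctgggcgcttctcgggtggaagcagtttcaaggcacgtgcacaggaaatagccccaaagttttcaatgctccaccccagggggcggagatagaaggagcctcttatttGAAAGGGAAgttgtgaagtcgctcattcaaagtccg
Fas: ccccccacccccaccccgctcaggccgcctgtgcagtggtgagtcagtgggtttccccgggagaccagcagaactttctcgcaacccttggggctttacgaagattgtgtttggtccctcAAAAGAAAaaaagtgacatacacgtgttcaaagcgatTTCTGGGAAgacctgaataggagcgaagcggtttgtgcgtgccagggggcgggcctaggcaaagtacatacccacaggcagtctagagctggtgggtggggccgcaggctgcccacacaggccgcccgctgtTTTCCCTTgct
Windows were found for 8 of the 10 genes, with 10 windows in all since Ripk1 and Casp4 have 2 each. AANNGAAA stood in a window of 5 of these 8 genes (Tnfsf10, Casp8, Casp4, Fas and Ripk1), against 23.9% of all 32841 promoter windows. Here and below, genes are counted with a match in any of their windows, whereas the shares are of single windows. Casp4 had AANNGAAA in both of its windows and Ripk1 in 1 of 2. In Tnfsf10 its matches began at positions -53 and -30, and in Casp8 at -171 and -108. GAAANNGAA stood in 2 genes (Ripk3, at 15, and 1 window of Ripk1), against 8.56% of all windows, and TTCNNNGAA in 2 genes (Fas, at -93, and the same window of Ripk1), against 8.3%. In that Ripk1 window the 3 motifs overlapped one another. The Mlkl and Casp1 windows held none of these letters. Matches are a description of the sequence only.

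Total counts were 14253416 to 18443329 per sample, and 3 counts, taken as the floor, corresponded to 0.163 to 0.210 CPM (the count scaled to the size of the library). Such floors cover counting error only. A few features of single libraries bear on the values. In muscle, the second SN-011 replicate listed 0 counts of Ripk1, Ripk3 and Casp4, and it detected only 11546 genes where the other samples detected 19798 to 24264. Control replicate 1 of each tissue had 3060 to 13811 counts of Xist and 0 to 3 of Ddx3y, whereas the other samples had at most 20 and at least 825, so that sex differed among controls only. A further feature is RNA of the stomach in other tissues: the summed level of 7 gastric epithelium genes was 2580 CPM in heart control replicate 2, 246 in replicate 3 and 22.0 in replicate 1, with 560, 234 and 32.8 CPM in the same order in muscle, and 2520, 1810 and 39.0 CPM in tongue. No SN-011 sample of these tissues exceeded 39.4 CPM. The 2580 CPM correspond to 3.77% of the mean level in control stomach. Markers otherwise followed the labels, with skeletal muscle genes at 119000 to 175000 CPM in muscle, cardiac genes at 21800 to 38500 CPM in heart, gastric genes at 19600 to 115000 CPM in stomach and squamous epithelium genes at 12700 to 55700 CPM in tongue. The replicates are described only by number, and p-values measure the spread between these samples. The study's methods take multiple tissues from each mouse, and the labels do not tie samples to animals, so tissue samples that share an animal enter the tests across tissues as if they were independent. In whole tissue, fewer cells of a type and less RNA per cell cannot be told apart.

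Averaged over the 4 tissues, Tnfsf10 was reduced to 0.310 of its control level after SN-011, Zbp1 to 0.491, Mlkl to 0.522 and Casp8 to 0.689, whereas Fas was raised to 1.46 times. Casp1, Casp4, Gsdmd, Ripk1 and Ripk3 did not pass the test. These 5 calls, 4 lower and 1 higher, come from edgeR's quasi-likelihood test in a joint fit of all 24 samples, with Benjamini-Hochberg adjustment over 19731 genes and a threshold of 0.05. In the same fit 7.67% of all genes were called lower and 4.32% higher. The median log2 fold change of the 10 genes was -0.31, against -0.09 over all genes. It was -0.69 when samples of 1 number and treatment were taken as 1 mouse (a random block in limma). For that fit no median over all genes was taken. Ripk1, Casp4 and Ripk3, the genes at 0 counts in muscle SN-011 replicate 2, were at -0.72, -0.70 and -0.69 in it. Their edgeR averages without that sample were -0.10, -0.08 and -0.17. The cause of the lower median with the mouse block was not tested. With that block the same 5 genes were called, at adjusted p of 0.00068 (Tnfsf10), 0.00067 (Zbp1), 0.00824 (Mlkl), 0.0227 (Casp8) and 0.035 (Fas), as were 9.01% of all genes.

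Within single tissues, 1 of 10 genes passed in the heart (Tnfsf10), where 0.848% of all genes did. None passed in stomach or tongue, where 0% of all genes did, or in muscle, where 0.0141% did. At an unadjusted p under 0.05, 5 genes were lower in tongue (7.33% of all genes), 4 in heart (11.6%), 4 in stomach (11.4%) and 2 in muscle (5.8%), and Fas was higher in heart (10.8%) and stomach (13.2%). Every SN-011 sample was below every control sample for 6 genes in stomach (15.2% of all genes), 5 in tongue (8.38%), 4 in muscle (19.8%) and 2 in heart (13.1%). Without SN-011 replicate 2 the count in muscle was 2 of 10 (Zbp1 and Mlkl), in a fit that called 7.4% of all genes. Without control replicate 1 the count in tongue was 5 of 10 (Zbp1, Mlkl, Casp1, Casp4 and Tnfsf10), in a fit that called 12.5% of all genes. The heart call did not hold in 4 of the 6 fits that left out 1 heart sample, in which the edgeR adjusted p was 0.0506 to 0.157. Those 4 fits called 0.00598% to 0.194% of all genes. Over the 6 fits the log2 fold change of Tnfsf10 was -1.36 to -1.06. The plot of CPM by sample shows all values.

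**Figure D1:**
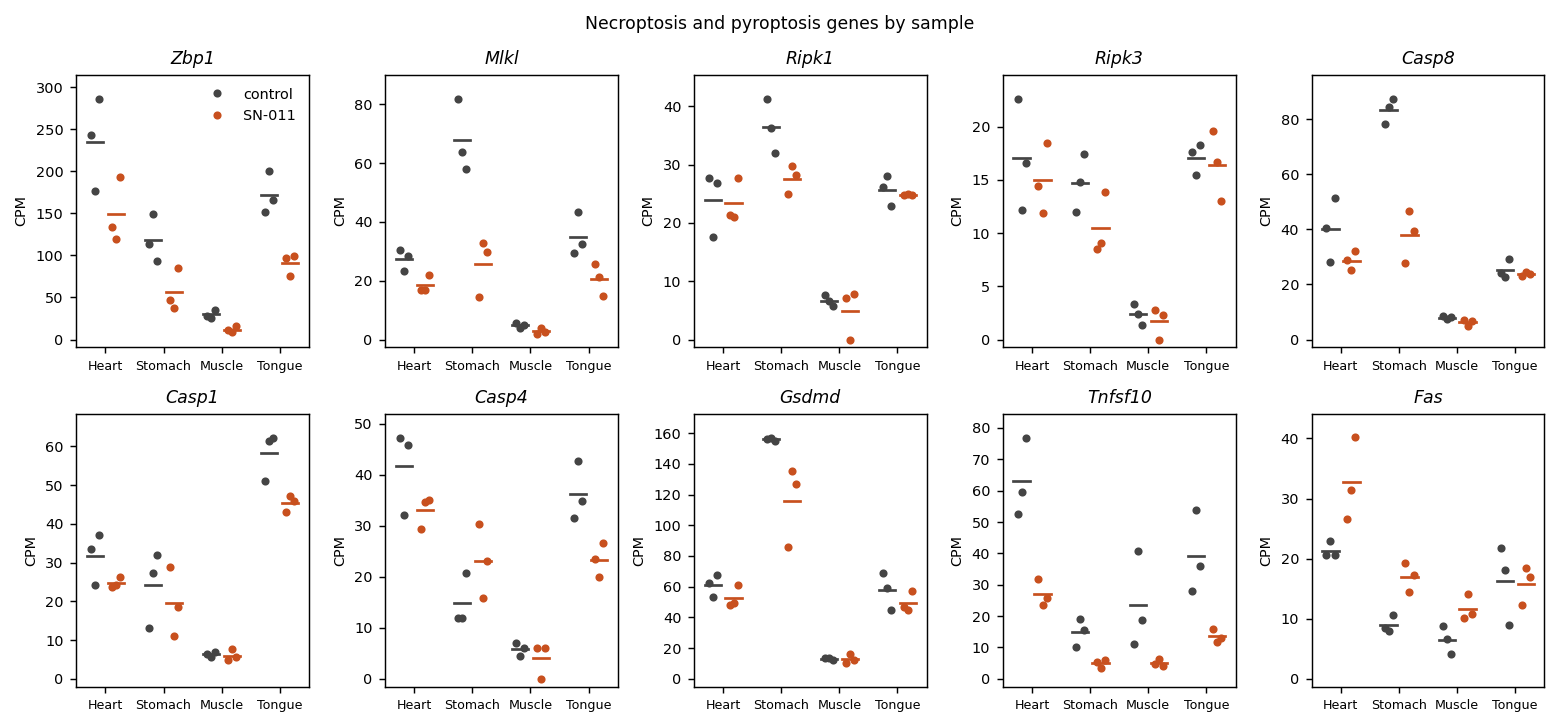
CPM of the 10 genes in each of the 24 samples, by tissue on the x axis, with control samples in grey and SN-011 samples in orange and a bar at the mean of each group of 3. SN-011 samples lie below the controls in all 4 tissues for Tnfsf10 and Mlkl, and the 0 of muscle SN-011 replicate 2 stands apart for Ripk1, Ripk3 and Casp4.

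Zbp1 encodes a sensor of Z-form nucleic acids that activates RIPK3. It lies on chromosome 2 (173206612 to 173218923, - strand; all positions are GRCm38). In the heart, controls 1 to 3 had 243, 177 and 286 CPM and SN-011 samples 134, 119 and 193 CPM. In the stomach the controls had 113, 149 and 93.3 CPM, against 46.8, 37.1 and 84.9 CPM. In the muscle they had 27.9, 26.0 and 35.6 CPM, against 11.4, 8.40 and 15.6 CPM. The groups overlapped in the heart, where SN-011 replicate 3 was above control replicate 2, and stood apart in the stomach and the muscle. In the tongue, controls at 152, 200 and 166 CPM stood apart from SN-011 samples at 96.5, 75.9 and 99.8 CPM. The log2 fold change was -1.07 ± 0.35 (SE) for stomach, -1.33 ± 0.27 for muscle, -0.93 ± 0.16 for tongue and -0.66 ± 0.22 for heart. None of these reached an adjusted p under 0.05 (lowest 0.127 in the stomach, edgeR), whereas the average of -1.03 (95% interval -1.35 to -0.71) did, with an edgeR adjusted p of 0.000387.

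Mlkl encodes the pseudokinase that executes necroptosis (chromosome 8, 111311797 to 111338177, - strand). Its largest within-tissue difference was in the stomach, where controls had 81.8, 63.7 and 58.1 CPM and SN-011 samples 14.6, 32.7 and 29.6 CPM. In the heart the values were 30.4, 23.3 and 28.3 CPM in controls and 16.7, 16.8 and 21.9 CPM after SN-011. In the tongue they were 29.3, 43.3 and 32.3 CPM, against 25.6, 21.1 and 14.7 CPM. SN-011 samples lay below all controls in each of the 4 tissues, by a small distance in muscle, with 5.70, 4.07 and 4.89 CPM in controls and 2.01, 3.75 and 2.44 CPM after SN-011. The log2 fold change was -1.41 ± 0.33 for stomach, -0.84 ± 0.44 for muscle, -0.77 ± 0.24 for tongue and -0.57 ± 0.16 for heart. The average was -0.94 (95% interval -1.24 to -0.64, edgeR adjusted p = 0.000503).

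Tnfsf10, the gene of the death ligand TRAIL, had the largest log2 fold change of the 10 genes in every tissue (chromosome 3, 27317028 to 27342427, + strand). In the heart the controls had 52.5, 59.7 and 76.8 CPM and the SN-011 samples 31.8, 23.4 and 25.8 CPM. In the stomach the controls had 10.2, 19.1 and 15.6 CPM, against 5.30, 3.43 and 5.96 CPM. All 4 tissues kept the groups apart. In the muscle the controls spread widely, at 11, 40.9 and 18.8 CPM, and the SN-011 samples lay close together at 4.61, 6.36 and 4.08 CPM. In the tongue the controls had 28.0, 53.7 and 36.0 CPM, against 16.0, 11.6 and 13.0 CPM. Control replicate 1 was the lowest control in all 4 tissues. The log2 fold change was -1.61 ± 0.38 for stomach, -2.23 ± 0.51 for muscle, -1.53 ± 0.26 for tongue and -1.22 ± 0.17 for heart (edgeR adjusted p = 0.0281). The average was -1.69 (95% interval -2.08 to -1.30, edgeR adjusted p = 3.88e-05).

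Casp8, the caspase that restrains necroptosis and starts apoptosis below death receptors, fell on average, and its fold changes were unequal between tissues (chromosome 1, 58795374 to 58847503, + strand). In the stomach the controls had 78.4, 84.6 and 87.6 CPM and the SN-011 samples 27.9, 46.7 and 39.5 CPM, well apart. In the heart the controls had 40.6, 28.2 and 51.3 CPM, against 28.8, 25.1 and 32.3 CPM, with overlap. In the tongue the controls had 24.3, 22.7 and 29.4 CPM, against 23.1, 24.7 and 23.7 CPM, also with overlap. Muscle SN-011 samples (7.20, 5.06 and 6.80 CPM) were just below controls (8.44, 7.47 and 8.02 CPM). The log2 fold change was -1.14 ± 0.25 for stomach, -0.33 ± 0.28 for muscle, -0.10 ± 0.15 for tongue and -0.48 ± 0.21 for heart, with an average of -0.54 (95% interval -0.78 to -0.30, edgeR adjusted p = 0.00494). The test of a difference between tissues gave an unadjusted p of 0.0224 and an edgeR adjusted p of 0.194. None of the 10 genes passed that test, which 2.32% of all genes did.

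Fas, a death receptor that recruits caspase-8, was the gene that rose (chromosome 19, 34290666 to 34327772, + strand). In the heart the controls had 20.6, 22.9 and 20.6 CPM and the SN-011 samples 26.6, 31.4 and 40.2 CPM. In the stomach the controls had 8.39, 7.92 and 10.6 CPM, against 19.2, 14.4 and 17.3 CPM. In the muscle they had 8.87, 6.62 and 4.14 CPM, against 10.1, 14.1 and 10.8 CPM. SN-011 samples were above all controls in these 3 tissues, as were 14.1%, 17.8% and 14.7% of all genes. In the tongue the groups overlapped, with 21.8, 18.1 and 8.93 CPM in controls and 12.3, 18.4 and 16.9 CPM after SN-011. The log2 fold change was 0.91 ± 0.29 for stomach, 0.83 ± 0.35 for muscle, -0.04 ± 0.33 for tongue and 0.62 ± 0.16 for heart. The average was 0.55 (95% interval 0.24 to 0.85, edgeR adjusted p = 0.0179), and the difference between tissues had an edgeR adjusted p of 0.467.

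The averages of the called genes were recomputed without the libraries described above. Without muscle SN-011 replicate 2 they were -1.71 for Tnfsf10, -0.97 for Zbp1, -0.98 for Mlkl, -0.49 for Casp8 and 0.53 for Fas, and without control replicate 1 of every tissue -1.90, -1.06, -0.87, -0.54 and 0.67. All 5 passed in both of these fits, which called 17% and 14.4% of all genes. Without control replicates 2 and 3 of the heart, muscle and tongue, the libraries with gastric transcripts, 1 control was left in each of these tissues, assumed to vary like the other groups, and it differed in sex from the SN-011 samples. There Tnfsf10 was at -1.22 ± 0.18 (edgeR adjusted p = 0.0205), Zbp1 at -0.96 ± 0.21 (0.0831), Mlkl at -0.96 ± 0.21 (0.0708), Casp8 at -0.54 ± 0.15 (0.19) and Fas at 0.35 ± 0.17 (0.511), so that 1 call of 5 held, in a fit that called 0.274% of all genes. The part of the gastric transcripts in these differences was not tested.

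**Figure D2:**
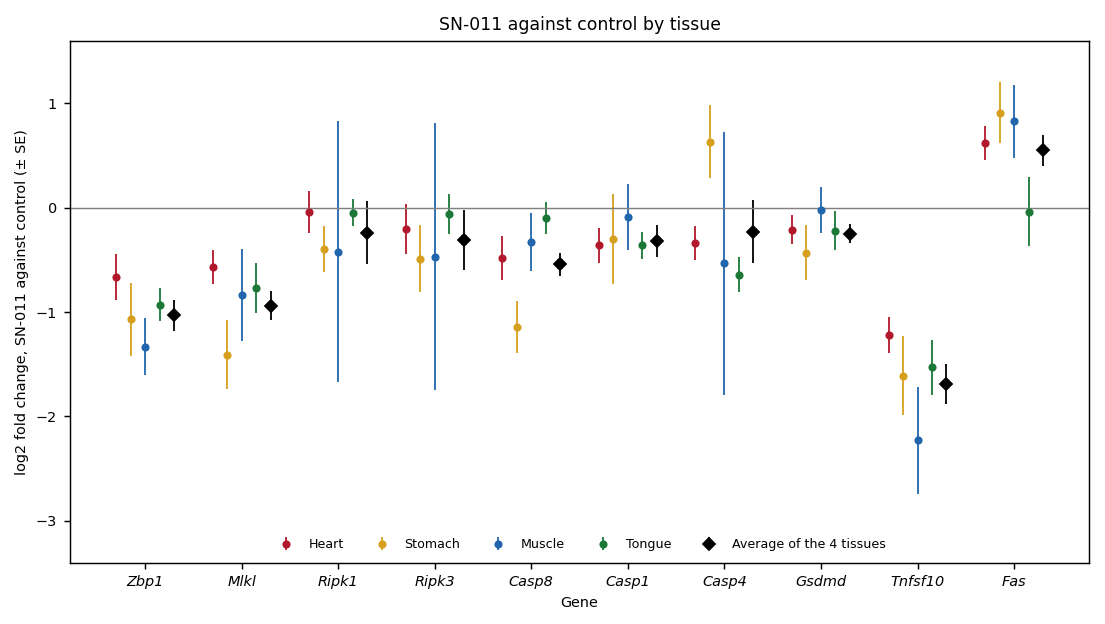
Log2 fold change of SN-011 against control for each gene, with SE bars, in the heart, stomach, muscle and tongue (circles) and on average (black diamonds). In all 4 tissues 8 of the 10 genes lie below 0, Fas lies above 0 in 3 and Casp4 in the stomach alone, and the wide bars of Ripk1, Ripk3 and Casp4 in muscle belong to the tissue with 1 sample at 0 counts.

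The kinases Ripk1 and Ripk3 did not pass in any tissue or on average. Ripk1, a scaffold and kinase shared by survival, apoptosis and necroptosis signalling, lies on chromosome 13 (34002363 to 34037147, + strand), where its exons overlap Gm17084 on the same strand and Serpinb6a on the other, so its counts are less certain. In the tongue it had 26.1, 28.0 and 22.9 CPM in controls and 24.7, 24.9 and 24.8 CPM after SN-011. In the heart it had 27.7, 17.5 and 26.9 CPM, against 21.4, 21 and 27.7 CPM. Both tissues overlapped. In the stomach SN-011 samples (24.9, 29.7 and 28.2 CPM) were below the controls (41.2, 36.3 and 32.0 CPM), at a log2 fold change of -0.40 ± 0.22 and an edgeR adjusted p of 0.284. In the muscle the controls had 7.60, 6.56 and 5.80 CPM and the SN-011 samples 7.14, 0 and 7.77 CPM, and the log2 fold change was -0.42 ± 1.25, or 0.16 ± 0.18 without the sample at 0. The average was -0.24 (95% interval -0.87 to 0.39, edgeR adjusted p = 0.683) and -0.10 ± 0.10 without that sample, whereas it was -0.72 ± 0.33 with mouse as a random block (limma adjusted p = 0.16).

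Ripk3, the kinase that phosphorylates MLKL, lies on chromosome 14 (55784995 to 55788865, - strand). Its groups overlapped in all 4 tissues. In the heart it had 22.6, 12.2 and 16.6 CPM in controls and 14.4, 11.9 and 18.5 CPM after SN-011. In the stomach it had 12, 14.8 and 17.4 CPM, against 8.48, 9.10 and 13.9 CPM. In the tongue it had 17.6, 15.5 and 18.3 CPM, against 19.6, 16.7 and 13.0 CPM. Muscle held little of it, with 3.32, 2.43 and 1.36 CPM in controls and 2.79, 0 and 2.32 CPM after SN-011. The log2 fold change was -0.49 ± 0.32 for stomach, -0.47 ± 1.28 for muscle, -0.06 ± 0.19 for tongue and -0.20 ± 0.24 for heart. The average was -0.31 (95% interval -0.92 to 0.30, edgeR adjusted p = 0.55), -0.17 ± 0.15 without muscle SN-011 replicate 2 and -0.69 ± 0.33 with mouse as a random block (limma adjusted p = 0.195).

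The pyroptosis genes Casp1, Casp4 and Gsdmd did not pass in any tissue or on average. Casp1, the caspase that matures interleukin-1β (chromosome 9, 5298517 to 5307265, + strand), was lower in the tongue without overlap, at 51.1, 61.3 and 62.3 CPM in controls and 43.0, 47.2 and 46.0 CPM after SN-011 (log2 fold change -0.36 ± 0.13, edgeR adjusted p = 0.365). Its groups overlapped in the heart (33.6, 24.2 and 37.1 against 23.6, 24.2 and 26.2 CPM), the stomach (13.0, 27.2 and 32.1 against 28.9, 11.1 and 18.6 CPM) and the muscle (6.49, 5.72 and 6.96 against 4.74, 7.67 and 5.56 CPM). The average was -0.32 (95% interval -0.62 to -0.01, edgeR adjusted p = 0.169).

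Casp4, the caspase of the non-canonical inflammasome that responds to cytosolic lipopolysaccharide, lies next to Casp1 (chromosome 9, 5308828 to 5336783, + strand). In the tongue it had 31.5, 42.6 and 34.9 CPM in controls and 23.4, 20 and 26.7 CPM after SN-011, without overlap (-0.64 ± 0.17, edgeR adjusted p = 0.284). In the heart it had 47.1, 32.1 and 45.8 CPM, against 29.3, 34.7 and 35.0 CPM, and the groups overlapped. The stomach had the opposite sign, with 12, 11.9 and 20.8 CPM in controls and 30.3, 15.8 and 23 CPM after SN-011 (0.63 ± 0.35, edgeR adjusted p = 0.295). In the muscle the values were 7.07, 4.41 and 6.0 CPM against 6.03, 0 and 6.07 CPM. The average of -0.23 (95% interval -0.86 to 0.40) had an edgeR adjusted p of 0.7, and it was -0.08 ± 0.13 without muscle SN-011 replicate 2 and -0.70 ± 0.34 with mouse as a random block (limma adjusted p = 0.192). The difference between tissues had an edgeR adjusted p of 0.755.

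Gsdmd, the substrate whose fragment forms the pyroptotic pore (chromosome 15, 75862327 to 75867408, + strand), was lower without overlap in the stomach alone. There the controls had 156, 157 and 155 CPM and the SN-011 samples 86.1, 135 and 127 CPM (-0.43 ± 0.26, edgeR adjusted p = 0.346). The groups overlapped in the heart, with 62.3, 53.5 and 67.3 CPM against 48.1, 49.4 and 61.0 CPM. They also overlapped in the muscle (13.6, 13.6 and 12 against 10.6, 16.2 and 12 CPM) and the tongue (68.6, 59.4 and 45.0 against 46.8, 45.0 and 56.9 CPM). The average was -0.25 (95% interval -0.45 to -0.06, edgeR adjusted p = 0.0768), and it passed without muscle SN-011 replicate 2, at -0.28 and an edgeR adjusted p of 0.045.

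The inducible effectors were then set against Ripk1 within each sample, as the log2 ratio of their counts with 0.5 added to each, a scale on which library size cancels. Of 24 ratios (6 genes in 4 tissues), 16 were lower after SN-011, and in 12 every SN-011 sample was below every control. None stood above. How often the ratios of all genes to Ripk1 separate the groups was not counted, so these 12 have no background to be set against. On the CPM scale, every SN-011 sample was below every control for 8.38% (tongue) to 19.8% (muscle) of all genes. With 3 samples against 3, the exact two-sided permutation test cannot give a p below 0.1, and after adjustment over the 24 ratios the lowest value was 0.2, so no ratio could pass. The mean log2 ratio of Mlkl to Ripk1 went from 0.21 ± 0.18 (SD, n = 3) to -0.34 ± 0.02 in the heart, and from 0.89 ± 0.09 to -0.19 ± 0.51 in the stomach. That of Tnfsf10 went from 0.56 ± 0.43 to -0.89 ± 0.24 in the tongue. The ratio of Gsdmd to Ripk1 overlapped between groups in every tissue, at 2.10 ± 0.18 and 2.05 ± 0.23 in the stomach, for example. In the muscle, the 0 counts of Ripk1 in SN-011 replicate 2 put that sample's ratios of Zbp1 and Mlkl at 7.69 and 6.54, whereas the other 2 SN-011 samples were at 0.68 and 1.0 for Zbp1 and -1.81 and -1.66 for Mlkl. Without it the 6 muscle ratios were lower after SN-011, by a mean difference of -2.40 for Tnfsf10, -1.32 for Zbp1, -1.29 for Mlkl, -0.48 for Casp1, -0.38 for Gsdmd and -0.09 for Casp4.

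**Figure D3:**
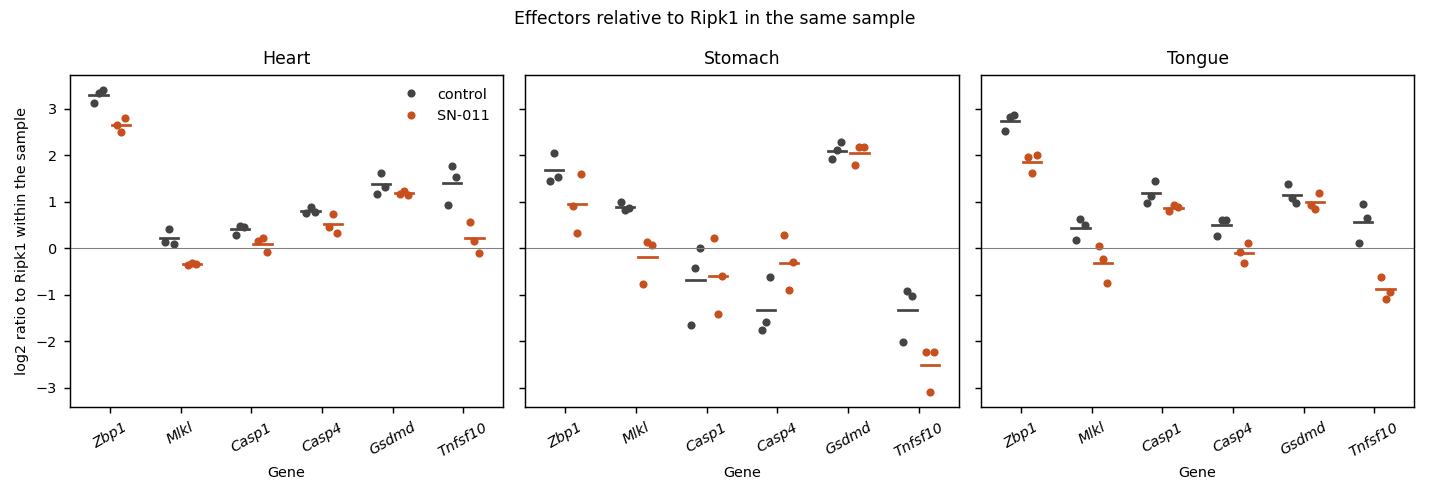
Log2 ratio of 6 effectors to Ripk1 within each heart, stomach and tongue sample, with controls in grey, SN-011 samples in orange and a bar at each mean. Mlkl and Tnfsf10 lie lower after SN-011 in all 3 tissues, while Gsdmd overlaps. Muscle is left out because 1 sample had 0 counts of Ripk1.

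Levels in control tissues were compared as CPM per kilobase of exon, on a normalization common to all 24 samples, whose TMM factors ran from 0.578 to 1.45. Heart had the highest level of Zbp1, Ripk3, Casp4, Tnfsf10 and Fas, stomach of Mlkl, Ripk1, Casp8 and Gsdmd, and tongue of Casp1. Muscle had the lowest level of 8 genes, and stomach of Tnfsf10 and Fas. Zbp1 was the highest of the 10 genes in the heart (59.7 ± 14.2 CPM per kb, SD, n = 3), tongue (41.4 ± 6.42) and muscle (14.0 ± 2.59), and came after Gsdmd in the stomach (28.1 ± 7.07 against 54.8 ± 1.79). Ripk1 was the lowest in the heart (2.58 ± 0.626), tongue (2.60 ± 0.277) and muscle (1.31 ± 0.151), and Tnfsf10 in the stomach (2.36 ± 0.69). Within the necroptosis axis, the control heart thus had 10.7 ± 1.48 CPM per kb of Mlkl and 6.72 ± 2.08 of Ripk3, and the control muscle 3.5 ± 0.537 and 1.70 ± 0.673.

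Between control tissues, edgeR called 8 of 10 genes different between heart and muscle (33.7% of all genes), 7 between heart and stomach (42.5%), 7 between stomach and muscle (51.6%), 7 between muscle and tongue (38.1%), 6 between stomach and tongue (36.9%) and 2 between heart and tongue (29.1%). Gsdmd was 6.03 times as high in stomach as in muscle (edgeR adjusted p = 9.42e-10), and Mlkl 7.04 times (1.77e-07). Casp8 differed between every pair of tissues, in the order stomach, heart, tongue and muscle, with the nearest neighbours, muscle and tongue, at 0.612 (edgeR adjusted p = 0.0192). Casp1 was highest in tongue, and its muscle level was 0.214 of that in tongue (7.29e-06). Zbp1 followed the order heart, tongue, stomach and muscle, in which heart and tongue (adjusted p = 0.207) and tongue and stomach (0.162) did not pass. Tnfsf10 followed heart, muscle, tongue and stomach, in which only tongue and stomach, of the neighbours, passed (adjusted p = 0.00451). Ripk1 differed between no pair, with the lowest adjusted p of 0.0504 for stomach against muscle. Fas had the order heart, tongue, muscle and stomach, in which no neighbours passed (adjusted p of 0.238, 0.364 and 0.146). Controls of heart, muscle and tongue replicates 2 and 3 hold gastric transcripts, and control replicate 1 differs in sex. Without control replicates 2 and 3 of those 3 tissues the counts of called genes were 2 between heart and muscle (5.15% of all genes), 3 between heart and stomach (19.1%), 3 between stomach and muscle (25% of all genes), 1 between muscle and tongue (6.6%), 3 between stomach and tongue (16%) and 0 between heart and tongue (3.87%). The 8 calls of heart against muscle became 5 without heart control replicate 1 (26.2% of all genes) or muscle control replicate 3 (25.5%). The 7 of muscle against tongue became 4 without muscle control replicate 2 (30.4%). The 2 calls of heart against tongue (Casp8 and Casp1) fell to 1 without all control replicate 1 samples (22.8% of all genes). They fell to 0 without heart control replicate 1 (21.6%), heart control replicate 3 (21.6%) or tongue control replicate 2 (22.2%).

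**Figure D4:**
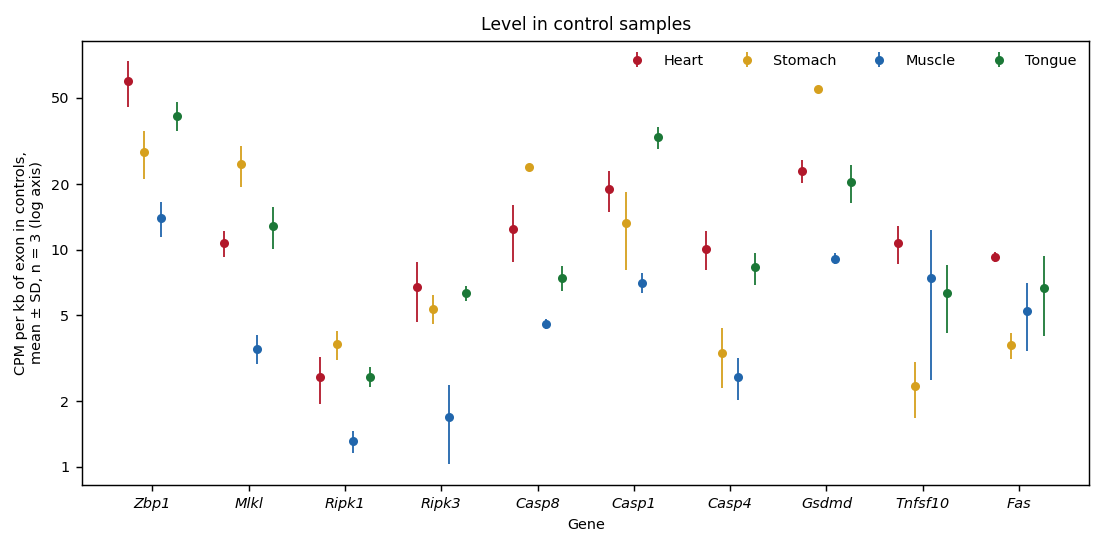
Level of each gene in control samples of the 4 tissues, as CPM per kilobase of exon on a log axis, with the mean and SD of 3 samples. Zbp1 is highest in the heart, tongue and muscle, and Gsdmd in the stomach. Ripk1, which has the greatest exon length (8.34 kb), is lowest per kilobase in the heart, tongue and muscle, but not in CPM.

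Other genes of the same pathways were taken from a list of 54 genes, of which 53 were tested on average. EdgeR called 7 lower and none higher, beside the 7.67% and 4.32% of all genes called lower and higher in that fit, and within single tissues none passed. In the necroptosis list 3 of 21 were lower: Tlr3, an RNA sensor that can start necroptosis (-1.0 ± 0.27, adjusted p = 0.019), Cyld, a deubiquitinase acting on RIPK1 (-0.30 ± 0.07, 0.0069), and Cflar, the partner that restrains caspase-8 (-0.30 ± 0.09, 0.0292). In the apoptosis list 4 of 14 were lower, among them Casp6, an executioner caspase (-0.61 ± 0.13, adjusted p = 0.0059), and the BH3-only gene Pmaip1 (-1.01 ± 0.29, 0.0294). None of 15 inflammasome genes and none of 3 death receptor genes passed. The median over the 53 genes was -0.30, against -0.09 over all genes. Tlr3 and Pmaip1 were each at 0 counts in at least 1 muscle SN-011 sample. The number called was 11 (10 lower) without muscle SN-011 replicate 2, 8 (6 lower) without all control replicate 1 samples and 0 without control replicates 2 and 3 of heart, muscle and tongue, in fits that called 17%, 14.4% and 0.274% of all genes. Over 31 alternatives, Cflar stayed past the threshold in 17 and Pmaip1 in 22.

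Tissue-centred log2 CPM across the 24 samples was used to find the genes most like Zbp1 and Mlkl among 12598 others. Only the mean of each tissue was subtracted, so the difference between control and SN-011 samples remains in every r. The values are a description and partly restate that difference. The 5 most like Zbp1 were H2-T23 (Pearson r = 0.96), Parp9 (0.95), Gm12250 (0.94), Tap1 (0.92) and Igtp (0.92). The 5 most like Mlkl were Pak1 (0.92), Nmi (0.91), Psmb9 (0.91), Lgals9 (0.90) and Irgm1 (0.90). Among the 10 genes, Zbp1 and Tnfsf10 were at r = 0.82, Zbp1 and Mlkl at 0.75 and Mlkl and Casp8 at 0.75. Fas was at -0.63 with Zbp1 and -0.69 with Casp8. Ripk1 was at 0.93 with Ripk3 and 0.89 with Casp4, which rested on the shared 0 counts of muscle SN-011 replicate 2: without that sample they were 0.60 and -0.16.

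Markers of immune cells, which express many of these genes, were followed beside them. The summed level of 27 leukocyte genes was 1600 to 2420 CPM in control heart and 1440 to 2070 after SN-011, 948 to 1190 and 493 to 991 in stomach, and 992 to 1530 and 868 to 1100 in tongue, with overlap in each. In muscle it was higher after SN-011, at 422 to 458 CPM against 339 to 390, most of it from the 6 macrophage genes (383 to 421 against 284 to 339 CPM). In the same tissue Ptprc, which marks all leukocytes, was below all controls (2.45 to 12.8 against 13.5 to 20.1 CPM), as were the summed endothelial genes (128 to 152 against 174 to 213 CPM). None of the 27 genes passed within a tissue. Of those tested 22 of 26 were lower in heart (51.4% of all genes), 13 of 23 in stomach (49.8%), 11 of 20 in muscle (55.5%) and 18 of 22 in tongue (51.5%). On average over the tissues 21 of 26 had a negative log2 fold change (58.9% of all genes), and 5 were called lower (7.67%) and none higher (4.32%). These were Xcr1 (-1.57 ± 0.32, edgeR adjusted p = 0.00366) and Itgax (-0.81 ± 0.22, 0.0228) of dendritic cells, Jchain of plasma cells (-1.23 ± 0.32, 0.0172), Ncr1 of NK cells (-2.46 ± 0.64, 0.0172) and Ptprc (-0.82 ± 0.26, 0.045). Ncr1 passed the count filter in the heart alone, and elsewhere its group means were at most 0.356 CPM. The other NK cell genes, Klre1 (-1.0) and Klrb1c (-0.19), did not pass. Xcr1 and Jchain were at 0 in at least 1 muscle SN-011 sample, and Ptprc was at 2.45 CPM in muscle SN-011 replicate 2. Averages of these markers without that replicate are not given here. Of 3 endothelial genes, Kdr was lower on average (-0.57 ± 0.16, edgeR adjusted p = 0.0237). Pecam1 (0.03 ± 0.14) and Cdh5 (-0.20 ± 0.14) did not pass, and in the stomach none of the 3 had a negative log2 fold change. Ly6g was at 0 in all muscle samples. Dendritic cell genes summed to 21.3 to 24.5 CPM in control stomach and 4.29 to 13.0 CPM after SN-011. Most of this was Itgax (means of 19.6 and 8.31 CPM), and Flt3 of the same list was at 0.48 ± 1.38. In the stomach, B cell and plasma cell genes also summed below all controls (195 to 274 against 342 to 814 CPM). Neutrophil genes there summed above all controls (4.68 to 7.95 against 0.484 to 3.21 CPM). In the stomach, squamous epithelium genes were higher after SN-011 (438 to 1450 CPM against 106 to 232), and gastric epithelium genes overlapped. In the heart, cardiac muscle genes were higher after SN-011 (31600 to 38500 CPM against 21800 to 30900). Skeletal muscle genes were likewise higher in muscle (144000 to 175000 CPM against 119000 to 133000). The part of these cell types in the changes of the 10 genes was not tested.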

How the data were processed

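The authors deposited raw counts of read pairs for 54532 genes per sample, without normalization. The study's methods name Trimmomatic, HISAT2 and featureCounts on uniquely mapped pairs, whereas the submitters' processing notes name HISAT2, HTSeq and mm10. Versions are not given in the sources used here. GENCODE M21 (GRCm38) held 54495 of the identifiers and gave symbols, positions and exon lengths.

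Depth was 14253416 to 18443329 counts. Samples were grouped by the labelled tissue and treatment. The quasi-likelihood test of edgeR 4.0.16 under R 4.3.3 was used for each tissue separately, after filterByExpr with a count minimum of 10 and a total of 15, which all 10 genes passed. Libraries were scaled by TMM and the prior count was 0.125. A joint fit of 24 samples gave the average, the difference between tissues and the control levels. P-values were adjusted by Benjamini-Hochberg over all genes (threshold 0.05). CPM by sample are scaled within a tissue. Ratios to Ripk1 were compared by exact permutation. The within-tissue fit was tested on counts simulated from the heart samples, and the joint fit was not tested in this way.

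Named genes were the 10 members, the 5 most like Zbp1 and the 5 most like Mlkl among genes of at least 1 CPM, and up to 10 called pathway genes. Values of some pathway genes are not reported here. Marker genes were named after their values were seen. The members and lists were chosen with earlier results of these data known. Alternatives were DESeq2 1.42.0, its size factors, no filter, a joint fit, a replicate block, mouse as a random block (limma 3.58.1), Ripk3 as the denominator, a pseudocount of 2 and each sample left out. Leaving out control replicate 1 of all tissues, or control replicates 2 and 3 of heart, muscle and tongue, was added after seeing the data.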

Additional observations from a re-analysis of the deposited data

Results flagged for a closer look

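Casp6, an executioner caspase of the pathway list, was singled out because its SN-011 effect differed between tissues in the joint fit (edgeR adjusted p = 0.0367, the only one of 53 pathway genes). In the stomach it went from 129 to 166 CPM in controls to 22.6 to 62.1 CPM after SN-011 (log2 fold change -1.75 ± 0.37), whereas the change was -0.04 ± 0.19 in the heart, -0.34 ± 0.17 in the tongue and -0.18 ± 0.40 in the muscle. The test passed in 10 of 29 alternatives, in which the adjusted p ran from 0.00588 to 0.368. None of the 10 necroptosis and pyroptosis genes was singled out in this way, and groups of 3 samples were not searched for outlying samples.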

How the results depend on the processing

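In the averaged comparison, Tnfsf10 stayed under the threshold in 31 of 31 alternatives (log2 fold change -1.90 to -1.22), Zbp1, Mlkl and Casp8 in 30 of 31 and Fas in 29 of 31, and none changed sign. The number of the 10 genes called fell from 5 to 1 without control replicates 2 and 3 of heart, muscle and tongue, a fit with 6 fewer samples. With that set left out, the genes called between tissues were 3 for heart and stomach, 2 for heart and muscle, 0 for heart and tongue, 3 for stomach and muscle, 3 for stomach and tongue and 1 for muscle and tongue, Tnfsf10 between muscle and tongue turned to -0.40, and 0 pathway genes were called on average or for the difference between tissues. Without control replicate 1 of all tissues, 1 gene was called for heart and tongue (22.8% of all genes) and 0 pathway genes for the difference (3.31%).

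Within tissues, DESeq2 called 4 of the 10 genes in heart (8.43% of all genes), 5 in stomach (14% of all genes), 2 in muscle (6.2%) and 2 in tongue (2.52%), and 15 pathway genes on average (19.6%). Without the filter on low counts there were 5 in heart (6.23%) and 3 in stomach (4.98%), and in the joint fit 0 in heart (0.00507%), 5 in stomach (13.9%) and 2 in muscle (2.4%). DESeq2's size factors left 1 gene for heart and tongue (29.7% of all genes). With mouse as a random block the median of the 10 genes was -0.69 on average, with 4 pathway genes called on average (9.01% of all genes) and 3 for the difference (4.74%). Some SN-011 minus control differences of the mean log2 ratio changed sign. With Ripk3 as the denominator the difference in muscle was -0.53 for Casp4 (0.01 with Ripk1) and -0.24 for Tnfsf10 (0.29 with Ripk1). In stomach that of Gsdmd was 0.05 (-0.05 with Ripk1). With Ripk1 and a pseudocount of 2 the difference of Tnfsf10 in muscle was -0.35. The cause of these changes was not tested, except that fewer samples were fitted where libraries were left out.

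Same-numbered control and SN-011 samples of a tissue, as deviations from group means, correlated on average at -0.0586 in heart, 0.0658 in stomach, 0.0383 in muscle and -0.308 in tongue. Single values ran from -0.457 in tongue to 0.299 in stomach. They were not compared with samples of different numbers, so whether the numbers pair the samples was not tested. The replicate block gave a median of -1.01 in muscle and 0.0327 for Fas in tongue. It called 4 of the 10 genes on average (7.1% of all genes), and Fas was lost, at 0.57 and an edgeR adjusted p of 0.0577. It called 0 pathway genes for the difference (0.182%).

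Leaving out 1 sample at a time, the number of the 10 genes called ran from 0 to 1 in heart, 0 to 2 in muscle, 0 to 5 in tongue, 5 to 8 for heart and muscle, 0 to 1 for heart and tongue and 4 to 7 for muscle and tongue, and pathway genes from 5 to 11 on average and 0 to 4 for the difference. The fits with 2 in muscle and 5 in tongue called 7.4% and 12.5% of all genes. Those with 5 for heart and muscle called 25.5% and 26.2%, and that with 4 for muscle and tongue 30.4%. The fits for heart and tongue called 19.8% to 25.3%. Without muscle SN-011 replicate 2, the fit with 11 pathway genes, 17% of all genes were called on average and 5.11% for the difference. The main fit called 12% and 2.32%. Shares of the other fits behind the pathway counts are not given here. The median in muscle ran from -0.75 to -0.20. Log2 fold changes that changed sign were Ripk1 (-0.22 to 0.05 in heart, -0.88 to 0.16 in muscle, -0.13 to 0.0151 in tongue), Ripk3 (-0.40 to 0.0311, -1.01 to 0.11 and -0.21 to 0.09), Casp1 (-0.31 to 0.0429), Casp4 (-0.93 to 0.05) and Gsdmd (-0.21 to 0.10) in muscle, Casp8 (-0.18 to 0.015) and Fas (-0.34 to 0.23) in tongue, and Tnfsf10 between muscle and tongue (-0.44 to 0.57). For the ratios to Ripk1, SN-011 minus control differences of the mean log2 ratio also changed sign. In muscle these were Zbp1 (-1.32 to 2.19), Mlkl (-1.29 to 2.89) and Casp1 (-0.48 to 3.59). Also in muscle were Casp4 (-0.17 to 0.14), Gsdmd (-0.38 to 3.65) and Tnfsf10 (-2.40 to 1.71). In stomach they were Casp1 (-0.40 to 0.50) and Gsdmd (-0.15 to 0.08).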
